A study of Mus musculus with 4 samples.

Results

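A stretch of mouse chromosome 3 on the telomeric side of *Lef1* was examined for contacts with the *Lef1* promoter and with Leaf, an intergenic element centromeric to *Lef1*. In the mm10 assembly, *Lef1* is followed on that side by an assembly gap from 131373450 to 131464394, where 89954 of 90945 bases are unknown, and the stretch starts at the far edge of that gap. It was defined as all restriction fragments with a midpoint between 131464395 and 132108763, the latter position being 1 Mb from the centre of the promoter viewpoint. These limits are positions in the assembly and the rule uses no score. The stretch held 638 of the 137330 scored fragments of chromosome 3 and of the 2350945 scored in the genome.

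The data comprised 4 4C-Seq libraries, 1 from each tissue with each viewpoint, and without replicates no test between tissues was possible. The tissues were whole whisker pads of E12.5 embryos and whole adult kidneys, the latter serving as the control, both from OF1 mice with no engineered allele or treatment named. 120 whisker pads were pooled and each tissue was digested to single cells, so that a score is an average over all cell types of the organ, and tissue and developmental stage cannot be told apart. The labels name E12.5 for the pads, whereas the methods of the study name E12.5 and a later day, E13. The authors deposited a raw score per fragment, a signal that is 0 where no contact was found and is not in whole reads, and the read depth is unknown. Summed over the genome, the raw scores came to between 787783 and 854206 per library, and their mean within 1 Mb of the promoter was 101 in whisker pad and 21.3 in kidney, and within 1 Mb of Leaf 65.0 and 16.5. Of all fragments within 1 Mb, 59.5% and 29.1% were above 0 for the promoter in whisker pad and kidney, and 37.1% and 14.0% for Leaf.

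4C-Seq joins DNA fragments that lie close to each other in the nucleus and reads out those joined to 1 chosen site, the viewpoint. Contacts fall with distance along the chromosome, and they often fall more steeply where a topologically associating domain ends, since such domains are stretches of DNA that contact themselves more than their neighbours. The protein CTCF is bound at many such boundaries. *Lef1* encodes a transcription factor of the Wnt pathway that is needed for whisker and hair follicles. The question asked here was whether contacts of the promoter and of Leaf were fewer in the telomeric stretch than at the same distances on the centromeric side, which serves as a mirror. The mirror held 689 fragments for the promoter, from 130108763 to 130753131, and 673 for Leaf, from 129930317 to 130574685.

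In the GENCODE M21 annotation, 3 protein-coding genes overlap the stretch. *Sgms2* (ENSMUSG00000050931.7), on the minus strand from 131318985 to 131491411, encodes a sphingomyelin synthase, and the assembly gap lies within it, so that its 5′ end alone belongs to the stretch. *Papss1* (ENSMUSG00000028032.13), on the plus strand from 131564768 to 131643671, makes PAPS, the sulfate donor of the cell. *Dkk2* (ENSMUSG00000028031.6), on the plus strand from 132085292 to 132180304, encodes a secreted modulator of Wnt signalling, and its 5′ part lies within the stretch. Between *Papss1* and *Dkk2* lies the long intergenic non-coding RNA *Gm29865* (ENSMUSG00000105331.1), on the plus strand from 131759805 to 132030743. The other annotated genes were 2 small nuclear RNAs, 1 pseudogene and 1 unconfirmed transcript model.

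The fragments of the stretch had a median length of 291 bases, a median GC content of 41.4% and a median of 13.7% of bases marked as repeats. In the promoter mirror these were 313 bases, 42.2% and 11.1%, and in the Leaf mirror 313 bases, 42.7% and 11.7%. The stretch held 99.01 scored fragments per 100 kb, against 107 and 104 in the mirrors, and 98.1% of its fragments contained a site of DpnII. Its fragments were therefore slightly shorter and sparser than those of either mirror, and the scored fragments together covered 35.9% of its span.

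The first 3 sequences are fragments in mm10 on the plus strand, each shown because it had the highest raw score of the stretch in its library. Each starts and ends with the site of the primary cutter NlaIII (CATG), and these sites and those of the secondary cutter DpnII (GATC) are in capitals, so that the 2 cuts that made each fragment readable can be seen.

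Highest in adult kidney from the *Lef1* promoter, chr3:131769576-131769846, in an intron of *Gm29865*: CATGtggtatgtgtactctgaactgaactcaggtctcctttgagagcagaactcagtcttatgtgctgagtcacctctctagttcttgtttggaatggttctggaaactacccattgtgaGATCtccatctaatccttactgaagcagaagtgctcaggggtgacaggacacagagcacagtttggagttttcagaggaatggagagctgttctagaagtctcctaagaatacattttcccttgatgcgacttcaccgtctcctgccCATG
Highest in whisker pad from Leaf, chr3:131790272-131790558, in an intron of *Gm29865*: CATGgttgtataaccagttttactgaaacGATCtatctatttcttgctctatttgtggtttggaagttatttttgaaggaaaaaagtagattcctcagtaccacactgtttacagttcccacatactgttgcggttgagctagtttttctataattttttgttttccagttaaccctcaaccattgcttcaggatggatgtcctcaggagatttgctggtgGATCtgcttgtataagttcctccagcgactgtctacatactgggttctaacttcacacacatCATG
Highest in adult kidney from Leaf, chr3:131754627-131754745, intergenic: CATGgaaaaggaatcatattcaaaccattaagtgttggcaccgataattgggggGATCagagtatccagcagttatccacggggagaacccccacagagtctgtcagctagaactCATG

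In whisker pad from the promoter, the highest fragment was the one that holds the start of *Dkk2*. The 250 bases before the most upstream start of each protein-coding gene are shown 5′ to 3′ on the strand of the gene (RefSeq, GRCm38.p6). They are shown because the fragments at these starts are described below. A score belongs to a whole fragment and cannot be assigned to these bases alone. Sites of both cutters are in capitals, and bases without them are read as 1 fragment.

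*Dkk2*, chr3:132085042-132085291, plus strand: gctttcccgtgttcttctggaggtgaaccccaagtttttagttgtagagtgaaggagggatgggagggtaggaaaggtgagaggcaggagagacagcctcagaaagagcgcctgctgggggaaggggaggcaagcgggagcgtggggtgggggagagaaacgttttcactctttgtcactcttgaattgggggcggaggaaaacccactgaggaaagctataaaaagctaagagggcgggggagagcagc
*Sgms2*, chr3:131491444-131491693, minus strand: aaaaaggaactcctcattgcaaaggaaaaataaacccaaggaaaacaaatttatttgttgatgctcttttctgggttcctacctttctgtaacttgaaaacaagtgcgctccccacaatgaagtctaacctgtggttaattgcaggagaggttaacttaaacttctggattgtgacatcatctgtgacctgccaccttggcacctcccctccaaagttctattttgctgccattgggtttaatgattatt
*Papss1*, chr3:131564518-131564767, plus strand: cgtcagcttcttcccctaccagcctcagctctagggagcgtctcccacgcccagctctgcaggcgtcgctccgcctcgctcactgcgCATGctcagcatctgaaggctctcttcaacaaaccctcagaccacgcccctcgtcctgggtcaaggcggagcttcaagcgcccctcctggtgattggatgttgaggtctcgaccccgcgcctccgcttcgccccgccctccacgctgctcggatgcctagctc

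The 3 promoters differ in base composition. That of *Papss1* had a GC content of 65.2% with 20 CpG dinucleotides, that of *Dkk2* 55.6% with 7, and that of *Sgms2* 40.0% with 1, against a median GC content of 52.4% over 32851 mouse promoters. *Papss1* alone had an NlaIII site in this window, as did 53.9% of all promoters, and 0 of the 3 had a DpnII site, which 41.9% of all promoters hold.

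From the *Lef1* promoter, 218 of the 638 fragments had a score above 0 in whisker pad, or 34.2% (95% Wilson interval 30.6% to 37.9%), beside 4.22% of all fragments of chromosome 3. In the centromeric mirror 341 of 689 fragments were above 0, or 49.5% (45.8% to 53.2%). In kidney the shares were 71 of 638, or 11.1% (8.92% to 13.8%), in the stretch, beside 2.26% of chromosome 3, and 115 of 689, or 16.7% (14.1% to 19.7%), in the mirror. The stretch was thus contacted more often than chromosome 3 as a whole, and less often than the mirror, in both libraries. The share in the stretch was 0.690 times that in the mirror in whisker pad and 0.667 times in kidney, and the intervals of stretch and mirror did not overlap in either library. These intervals cover the number of fragments alone, and they are too narrow where neighbouring fragments share their state.

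From Leaf the stretch was detected less. In whisker pad 82 of 638 fragments were above 0, or 12.9% (10.5% to 15.7%), beside 1.72% of chromosome 3 and 119 of 673, or 17.7% (15.0% to 20.7%), in the mirror. In kidney 22 were above 0, or 3.45% (2.29% to 5.17%), beside 0.933% of chromosome 3 and 36 of 673, or 5.35% (3.89% to 7.32%), in the mirror. The share in the stretch was 0.727 times that in the mirror in whisker pad and 0.645 times in kidney, and the intervals of stretch and mirror overlapped in both. At a matched range of distances, the telomeric share was therefore the lower one in all 4 libraries. Over the whole range the factors were similar, but they were not even along it. From the promoter in kidney the factor was 0.284 in the first 100 kb past the gap and 0.856 beyond it. In whisker pad it was 0.692 and 0.690. From Leaf it was 0.837 and 0.716 in whisker pad, and 0.404 and 0.736 in kidney. The Leaf intervals are likewise too narrow where neighbouring fragments share their state, and they were not used to separate the sides.

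The mean raw score, zeros included, did not move in step with the share. From the promoter it was 15.3 in the stretch and 33.9 in the mirror in whisker pad, a log2 ratio of -1.15, and 3.37 against 5.27 in kidney, a log2 ratio of -0.65. From Leaf it was 10.3 against 12.4 in whisker pad, a log2 ratio of -0.26, and 4.77 against 3.63 in kidney, a log2 ratio of 0.39. The stretch was thus lower than its mirror in 3 libraries and higher in the kidney library from Leaf. In that library 5 fragments held 55.5% of the raw score of the stretch, against 11.02% in whisker pad from the promoter, 22.3% in kidney from the promoter and 23.0% in whisker pad from Leaf.

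Among fragments above 0 alone, the median score from the promoter was 28.7 in the stretch and 32.6 in the mirror in whisker pad, and 21.3 against 21.4 in kidney. From Leaf it was 44.4 against 40.4 in whisker pad and 102 against 32.3 in kidney, the last over 22 and 36 fragments. The mean of fragments above 0 from the promoter was 44.8 against 68.4 in whisker pad and 30.3 against 31.6 in kidney. In kidney the lower level of the stretch was thus mainly in how many fragments were above 0. In whisker pad it was also in the height of the scores, but in the first 100 kb past the gap only. There the mean of those above 0 was 56.6 against 165 and the median 43.7 against 119. Beyond it the mean was 41.1 against 38.3 and the median 23.1 against 24.1. In kidney the median in the first 100 kb was not lower, at 44.3 against 21.9 over 10 and 38 fragments. As a share of the raw score of chromosome 3, the stretch took 3.01% in whisker pad and 1.89% in kidney from the promoter, against 7.19% and 3.19% in the mirror. From Leaf it took 2.86% and 3.16%, against 3.61% and 2.54%.

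**Figure D1:**
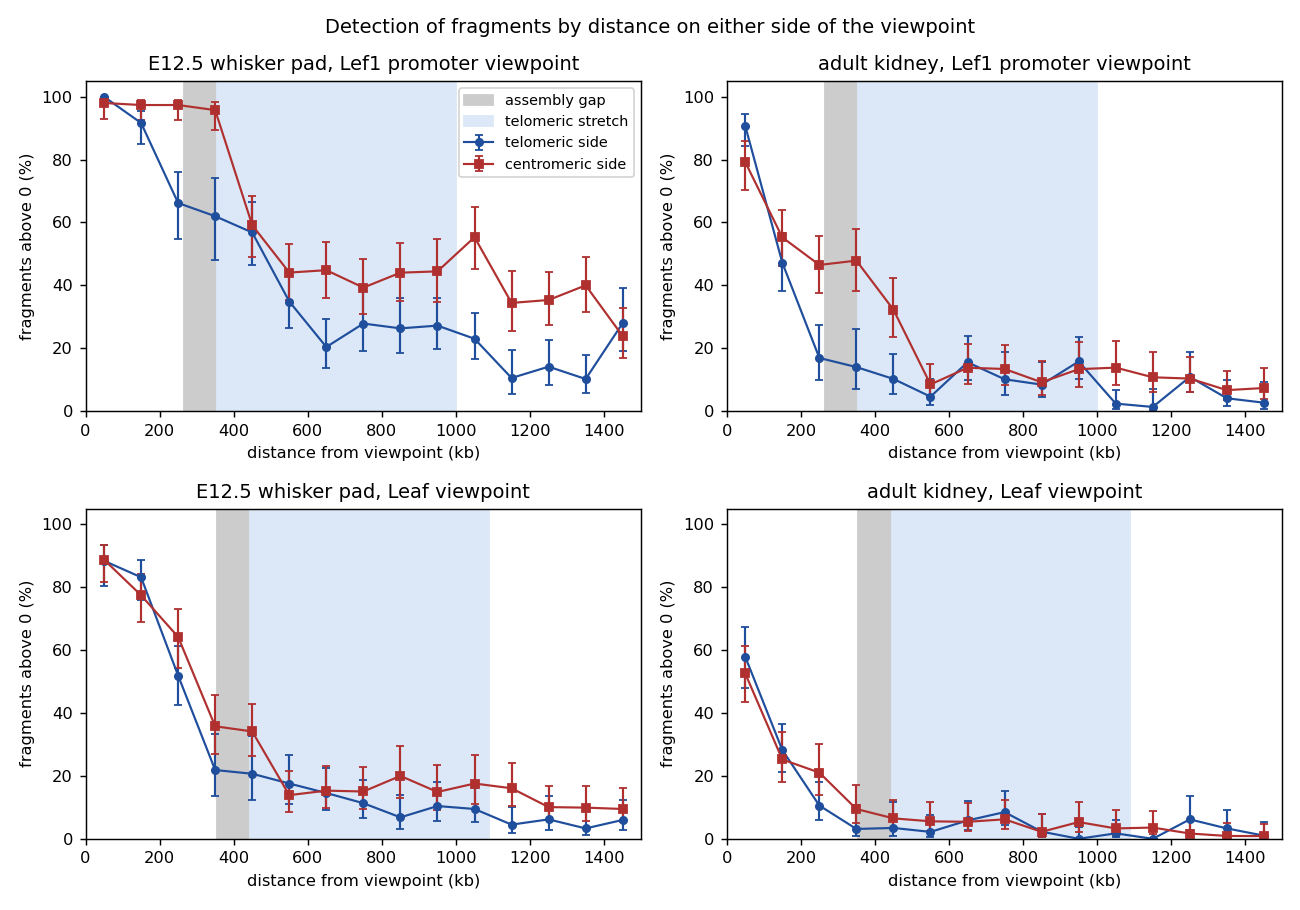
Share of fragments with a raw score above 0 (y axis, %) in steps of 100 kb of distance from the viewpoint (x axis, kb), for the telomeric side (blue circles) and the centromeric side (red squares) in each of the 4 libraries; bars are 95% Wilson intervals over fragments, grey marks the assembly gap and light blue the stretch. From the promoter in whisker pad the telomeric share was already 66.2% against 97.4% at 200 to 300 kb, mostly before the gap.

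The difference between the sides was present before the gap was reached. In the last 100 kb before the gap, 70.2% of fragments were above 0 in whisker pad from the promoter, against 96.7% at the same distances on the centromeric side. In kidney the shares were 22.1% against 48.4%. From Leaf they were 24.0% against 51.0% in whisker pad and 2.88% against 19.6% in kidney. The telomeric side was thus lower in all 4 libraries while still on the *Lef1* side of the gap.

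Across the gap, the first 100 kb of the stretch held 89 fragments, of which 58.4% (48.0% to 68.1%) were above 0 in whisker pad from the promoter and 11.2% (6.22% to 19.5%) in kidney. The fall from the last 100 kb before the gap was to 0.832 times in whisker pad and to 0.508 times in kidney. Over the same distances the centromeric share fell to 0.872 times, from 96.7% to 84.4%, and to 0.819 times, from 48.4% to 39.6%. In whisker pad the step in share across the gap was therefore close to that on the side without a gap. The latter began near the upper limit of a share, which narrows such a ratio. In kidney the step in share across the gap was larger, with 10 fragments above 0 behind it. The mean score fell to 0.829 times across the gap and to 0.728 times on the centromeric side in whisker pad. In kidney it fell to 0.562 and 0.794 times.

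From Leaf the share in the first 100 kb was 20.2% (13.2% to 29.7%) in whisker pad and 3.37% (1.15% to 9.45%) in kidney. These were 0.841 times and 1.17 times the shares before the gap, whereas the centromeric shares fell to 0.474 times and 0.425 times over the same distances. From Leaf the fall at these distances was thus on the centromeric side and not across the gap. The mean raw score in the first 100 kb was 33.1 against 139 in the mirror in whisker pad from the promoter and 4.48 against 15.4 in kidney. From Leaf it was 20.4 against 17.8 and 6.02 against 5.47, so that only the promoter libraries had a lower mean there.

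Beyond the first 100 kb, 30.2% of fragments were above 0 in whisker pad from the promoter, against 43.8% in the mirror. In kidney the shares were 11.1% (8.75% to 14.0%) against 13.0% (10.5% to 15.9%). From Leaf the shares were 11.7% against 16.3% in whisker pad and 3.46% against 4.70% in kidney. The intervals of the sides overlapped here in every library except whisker pad from the promoter. The mean score in whisker pad from the promoter was 12.4 against 16.8 here, a log2 ratio of -0.44 in place of -1.15. Most of its difference in mean thus lay in the first 100 kb. By distance from the promoter, the centromeric mean fell from 179 at 300 to 400 kb to 30.7 at 400 to 500 kb. The telomeric mean had fallen before the gap, from 142 at 100 to 200 kb to 35.2 at 200 to 300 kb. At 400 to 500 kb it was 27.6 and at 500 to 600 kb 14.2, against 30.7 and 13.9. From 600 kb to 1 Mb it was the lower one in each step, as with 8.41 against 15.8 at 600 to 700 kb.

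In 7 consecutive bins, 6 of 100 kb and a last one of 44 kb, the share of the stretch was below that of the mirror in 7 bins in whisker pad from the promoter, in 4 in kidney, and in 6 in both libraries from Leaf. In whisker pad from the promoter the shares of the stretch ran from 58.4% to 47.1%, 18.4%, 28.2%, 31.6%, 22.3% and 30.0% with distance from the gap. Those of the mirror ran from 84.4% to 54.6%, 33.9%, 42.5%, 46.2%, 45.6% and 34.9%. Both sides thus fell over the first 300 kb and were at their lowest between 200 and 300 kb past the gap. In kidney the shares of the stretch lay between 8.26% and 14.6% in every bin, with no such fall.

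The mean score was lower than in the mirror in 5 of 7 bins in both promoter libraries and in 4 of 7 in both Leaf libraries. The bin from 200 to 300 kb past the gap, between *Papss1* and *Gm29865*, stood out in kidney from Leaf, with a mean raw score of 12.4 against 0.828 and 8 of 87 fragments above 0 against 3 of 121.

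**Figure D2:**
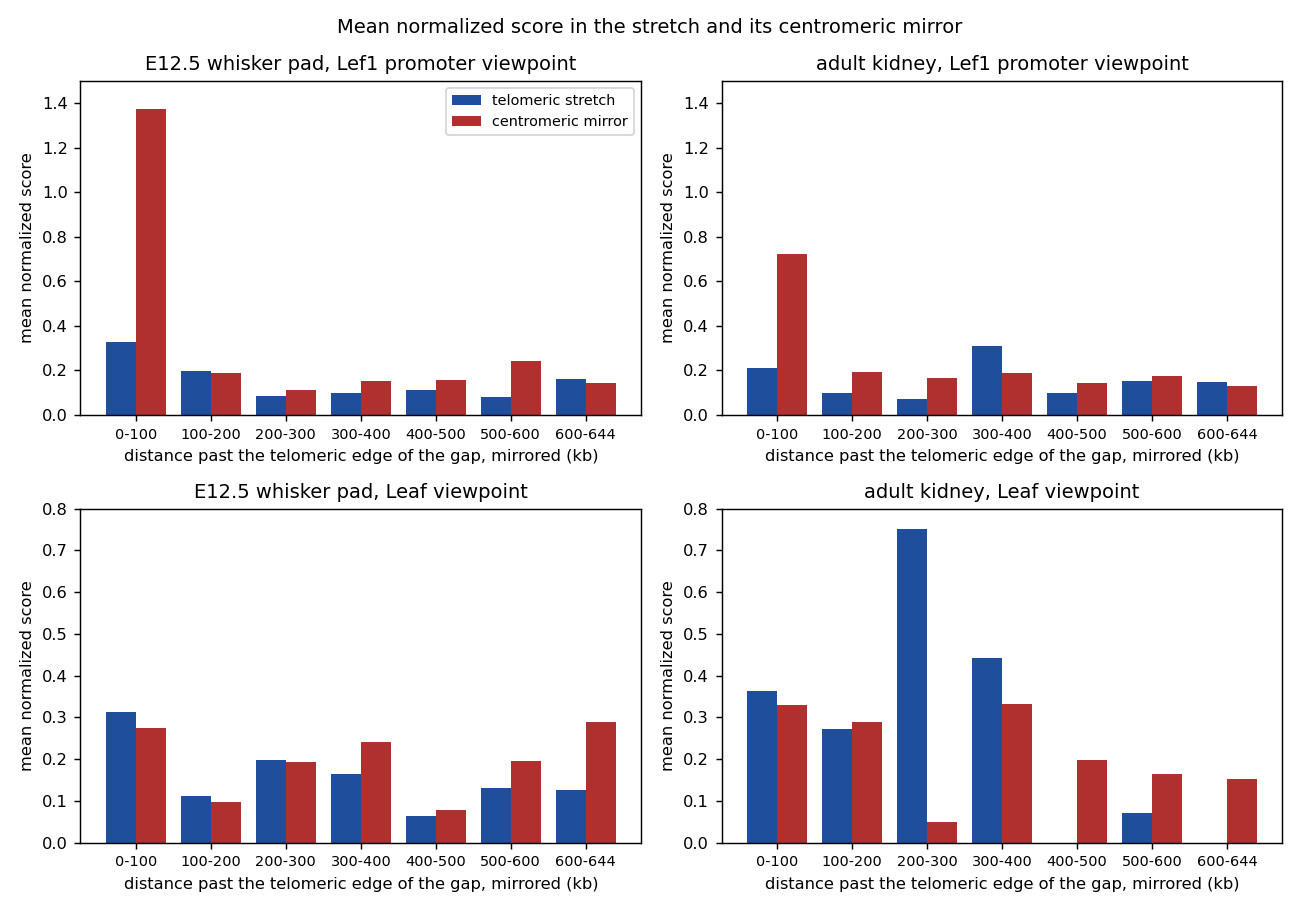
Mean normalized score, the raw score over its mean within 1 Mb of the viewpoint with zeros included (y axis, with a different scale for each viewpoint), in bins of distance past the telomeric edge of the gap (x axis, kb), for the stretch (blue bars) and its centromeric mirror (red bars). Each bar is 1 library, so there are no error bars. From the promoter the bars differ most in the first 100 kb, at 0.326 against 1.37 in whisker pad and 0.210 against 0.724 in kidney.

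Past the end of the stretch, the next 500 kb were lower again. In whisker pad from the promoter 17.3% of those fragments were above 0 against 37.4% on the centromeric side, and in kidney 4.28% against 9.59%. From Leaf the shares were 4.28% against 11.01% in whisker pad and 2.78% against 1.99% in kidney. The telomeric side thus stayed lower beyond the stretch in 3 libraries, whereas farther than 1 Mb from the viewpoint chromosome 3 as a whole had between 0.741% and 3.40% of fragments above 0.

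At the near limit of the stretch, the last fragment before the gap (131373140 to 131373449) had raw scores of 57.49 in whisker pad and 0 in kidney from the promoter, and of 196.8 and 357.6 from Leaf. The first fragment past the gap (131464395 to 131464555) was at 0 in all 4 libraries. At the far limit, the last fragment inside (132107632 to 132108635) had 14.37 in whisker pad from the promoter and 0 in the others, and the first outside (132109013 to 132109304) was at 0 in all 4.

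**Figure D3:**
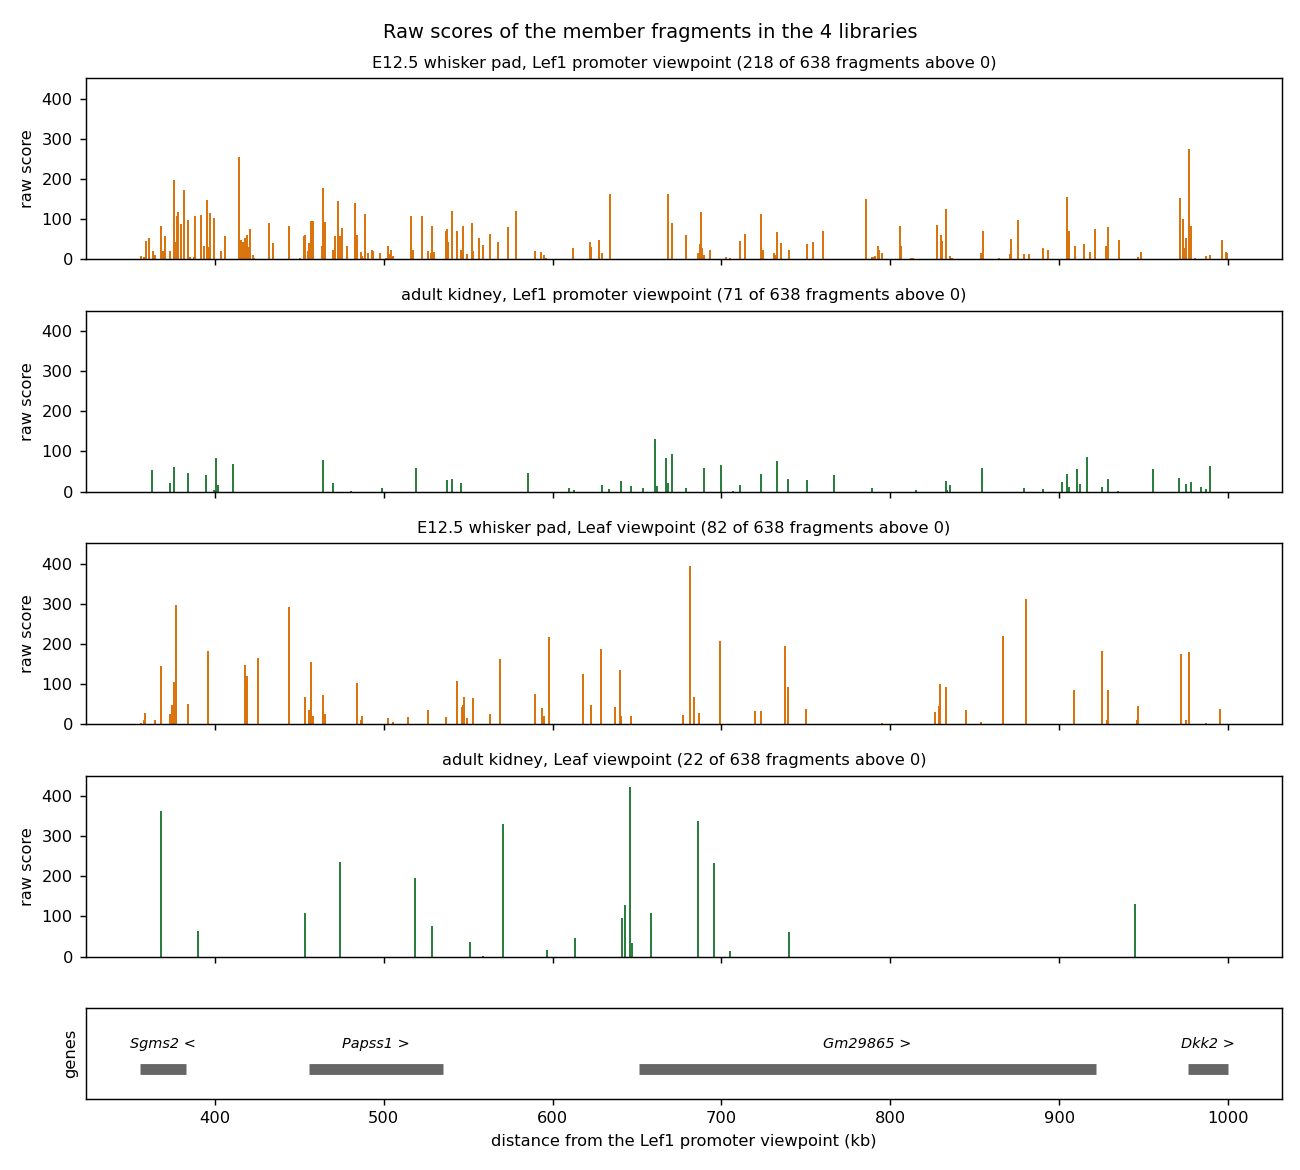
Raw score (y axis) of each of the 638 fragments of the stretch at its distance from the *Lef1* promoter viewpoint (x axis, kb), in 1 panel per library (orange, whisker pad; green, kidney), with the main genes and their direction below. The 218 fragments above 0 in whisker pad from the promoter are densest near the gap, over *Sgms2* and *Papss1*, whereas the 22 in kidney from Leaf are few and high.

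Detection along the genes was read by segment. In whisker pad from the promoter, 18 of 29 fragments of the *Sgms2* part were above 0 (62.1%), as were 35 of 61 between *Sgms2* and *Papss1* (57.4%) and 42 of 84 in *Papss1* (39.5% to 60.5%). Past *Papss1* the share was 30 of 120 before *Gm29865* (18.1% to 33.4%), 72 of 268 in *Gm29865* (26.9%) and 11 of 51 between *Gm29865* and *Dkk2* (21.6%). In the *Dkk2* part it was 10 of 25 (40.0%, 23.4% to 59.3%). The shares of the first 3 segments were thus higher than those of the next 3, and the interval of *Papss1* did not overlap that of the segment before *Gm29865*, but did overlap that of the *Dkk2* part. The segments do not place the fall at the end of *Papss1*. The bin from 100 to 200 kb past the gap was at 47.1% and the next at 18.4%, but *Papss1* holds 84 of the 121 fragments of the former. By distance from the promoter, the share was 56.8% at 400 to 500 kb and 34.9% at 500 to 600 kb, and the border between these lies within *Papss1*. Bins of this width cannot place the fall.

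In kidney from the promoter the counts above 0 were 3 of 29 in the *Sgms2* part, 7 of 61 between *Sgms2* and *Papss1*, 7 of 84 in *Papss1* (8.33%, 4.10% to 16.2%), 10 of 120 before *Gm29865* (8.33%), 34 of 268 in *Gm29865* (12.7%), 6 of 51 before *Dkk2* and 4 of 25 in the *Dkk2* part (16.0%). The intervals of all these segments overlapped. The difference between the tissues in this course along the genes was not tested, since each is 1 library.

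From Leaf in whisker pad, 10 of 29 fragments of the *Sgms2* part were above 0 (34.5%, 19.9% to 52.7%), against 11 of 84 in *Papss1* (13.1%) and 21 of 268 in *Gm29865* (7.84%, 5.18% to 11.7%). Of the 25 fragments of the *Dkk2* part 4 were above 0. In kidney the largest count from Leaf lay between *Papss1* and *Gm29865*, with 9 of 120 (4.00% to 13.6%), while *Papss1* had 3 of 84 and the *Dkk2* part 0 of 25, for which the upper limit of the interval is 13.3%. From Leaf the *Sgms2* part was thus the most often detected segment in whisker pad.

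**Figure D4:**
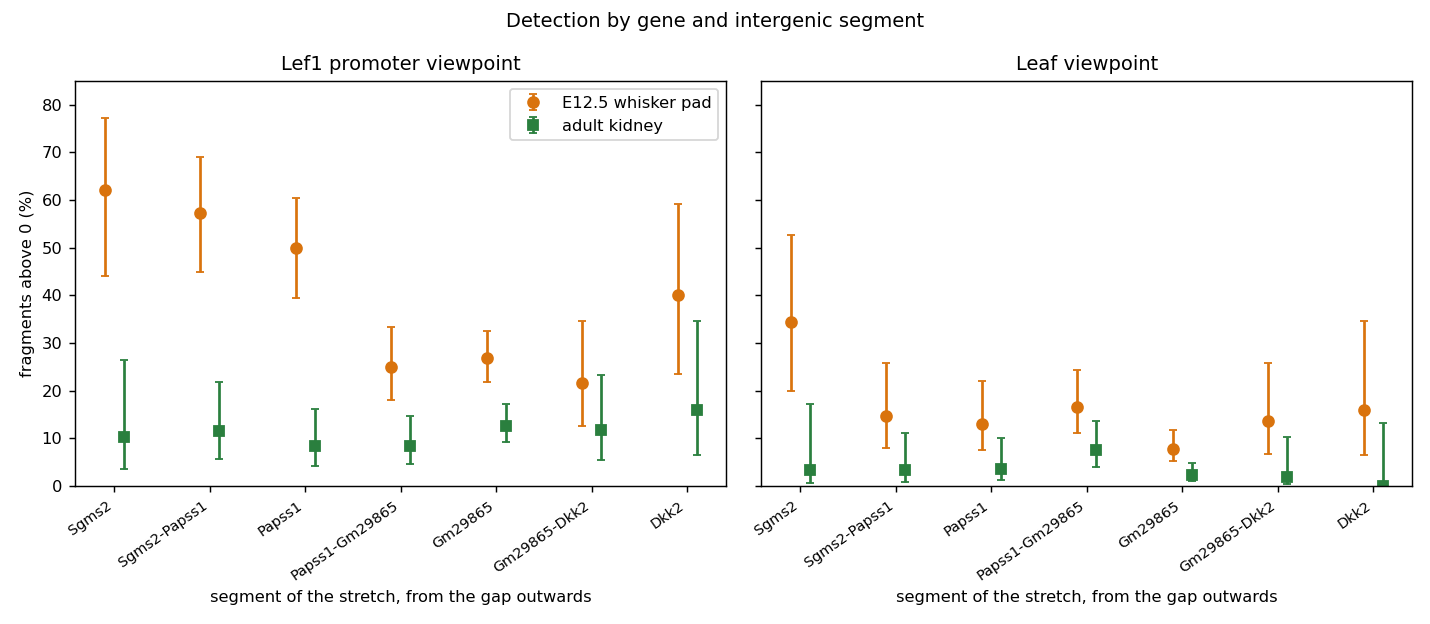
Share of fragments with a raw score above 0 (y axis, %) in 7 segments of the stretch ordered from the gap outwards (x axis), for the promoter viewpoint (left) and the Leaf viewpoint (right), in whisker pad (orange circles) and kidney (green squares); bars are 95% Wilson intervals over fragments. In whisker pad from the promoter the share was 62.1%, 57.4% and 50% in the segments up to *Papss1* and lay between 21.6% and 40.0% beyond it.

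At comparable distances in the mirror, *Col25a1*, a collagen gene, had 224 of 516 fragments above 0 in whisker pad from the promoter (43.4%) and 62 in kidney (12.02%). *Ostc* and *Etnppl*, which lie at distances like those of *Sgms2* and *Papss1*, had 9 of 14 and 13 of 24 above 0 in whisker pad, and 3 of 14 and 9 of 24 in kidney. *Rpl34*, a ribosomal protein gene and the mirror gene nearest to the promoter, had 3 of 3 above 0 in whisker pad, with a mean raw score of 440 beside 36.7 in the *Sgms2* part. *Papss1* was thus detected about as often in whisker pad as *Etnppl*, but in kidney less, at 8.33% against 37.5% (21.2% to 57.3%). The Leaf mirror also took in a part of *Mcub* and all of *Sec24b*, with 8 of 39 and 13 of 82 fragments above 0 in whisker pad and 3 and 1 in kidney.

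The highest single fragment from the promoter in whisker pad (132084943 to 132086199, 1257 bases) holds the start of *Dkk2* and the bases printed above for it. Its raw score was 274.4 from the promoter and 180.8 from Leaf in whisker pad, and 0 from both viewpoints in kidney. It was 977 kb from the promoter, near the far limit of the stretch, and ranked above fragments that were much closer. Of the 39 fragments of at least 800 bases, it was the highest from the promoter in whisker pad and the second from Leaf. Within 10 kb of the *Dkk2* start, 8 of 21 fragments were above 0 from the promoter in whisker pad and 4 of 21 in kidney, with mean raw scores of 34.2 and 4.18.

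At the starts of the other genes the scores were lower. The fragment with the start of *Sgms2* (131489501 to 131491752) had 173.1 from the promoter in whisker pad, the fifth highest there, and 0 in the other 3 libraries. The fragment with the start of *Papss1* (131564609 to 131564922) had 40.8 from the promoter and 34.57 from Leaf in whisker pad and 0 from both in kidney. All 3 start fragments were therefore above 0 from the promoter in whisker pad and at 0 in both kidney libraries, where the share of fragments at 0 is also the larger one throughout. Fragments that touch an exon were above 0 in 17 of 28 cases from the promoter in whisker pad (60.7%, 42.4% to 76.4%), against 127 of 380 in introns (33.4%, 28.9% to 38.3%) and 74 of 230 between genes (32.2%). Most of the exon fragments lie in *Sgms2*, *Papss1* and the transcript model within *Papss1*, near the gap, where the share was higher throughout, and most of the intron fragments in *Gm29865*, and the part of distance in this difference was not tested. In kidney the exon count from the promoter was 1 of 28, against 47 of 380 and 23 of 230. From Leaf it was 5 of 28 in whisker pad and 1 of 28 in kidney.

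Of the other high fragments from the promoter in whisker pad, the second (131523045 to 131523236, intergenic) had 254.4 and was at 0 in the other 3 libraries. The third (131484424 to 131484731, in an intron of *Sgms2*) had 196.1, with 61.44 in kidney from the promoter and 105.3 in whisker pad from Leaf. The next (131572178 to 131573802, in an intron of *Papss1*) had 178.4, with 80.01 and 73.38 in the same libraries. Both of these intron fragments were thus above 0 in 3 libraries and at 0 in kidney from Leaf.

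The highest fragments of the other libraries recurred less. The kidney fragment with 130.4 from the promoter, printed above, was at 0 in the other 3 libraries, as were the whisker pad fragment with 393.6 and the kidney fragment with 422.3 from Leaf. The second from Leaf in kidney (131476539 to 131477604, in an intron of *Sgms2*) had 362.6 and was also above 0 in whisker pad, with 144.1 from Leaf and 82.15 from the promoter. The highest fragment of each of these 3 libraries was thus seen in that library alone.

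High scores in the stretch also came closely spaced at its near end. Of all windows of 11 consecutive fragments, that with the highest mean raw score from the promoter in whisker pad lay at 131484424 to 131493472, over the 5′ end of *Sgms2*, with a mean of 74.6 and 8 of 11 fragments above 0. From Leaf in whisker pad it lay beside it, at 131476539 to 131485619, with a mean of 56.4 and 6 of 11 above 0. In kidney the highest windows lay elsewhere, from the promoter at 131766942 to 131775970 within *Gm29865* (mean 20.8, 3 of 11 above 0) and from Leaf at 131748371 to 131756564 before *Gm29865* (mean 62.2, 4 of 11). The whisker pad windows of both viewpoints thus fell on *Sgms2*, and the kidney windows on or next to *Gm29865*. Each kidney window held the highest fragment of its library, with 130.4 and 422.3, which was at 0 in every other library. The whisker pad window from Leaf likewise held a high fragment, with 297.8.

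The longest run of consecutive fragments at 0 was 21 from the promoter in whisker pad, 43 in kidney, 34 from Leaf in whisker pad and 173 in kidney. The last of these ran from 131867392 to 132052231, or 185 kb, within and past the distal part of *Gm29865*. The runs in the mirror held fewer fragments, at 14, 35, 25 and 81, although that from Leaf in whisker pad was longer in kb, at 30.8 against 25.5.

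Most fragments of the stretch were seen in at most 1 library. Of the 638 fragments 333 were at 0 throughout, 226 were above 0 in 1 library, 70 in 2, 9 in 3 and 0 in all 4. Of the 9 seen in 3 libraries, which were singled out after their values were seen, 3 lie in introns of *Sgms2*, 1 in an intron of *Papss1*, 1 in *Gm29865*, 1 in *Dkk2* and 3 between genes. 7 of them were above 0 in both whisker pad libraries and in kidney from the promoter, and the other two in both whisker pad libraries and in kidney from Leaf.

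Between tissues, 29 fragments were above 0 in both promoter libraries, which is 13.3% of those of whisker pad and 40.8% of those of kidney. In the mirror the shares were 22.6% and 67.0%. A further 189 fragments were above 0 in whisker pad alone, or 29.6% of the stretch beside 3.71% of chromosome 3, and 42 in kidney alone, or 6.58% beside 1.75%. From Leaf 2 fragments were shared, 80 were seen in whisker pad alone, or 12.54% beside 1.55% of chromosome 3, and 20 in kidney alone, or 3.13% beside 0.763%. The shared ones were 2.44% of those of whisker pad and 9.09% of those of kidney. In the Leaf mirror 11 were shared, or 9.24% and 30.6%. Beside the 40.8% of kidney fragments from the promoter that were shared stands the 34.2% of all fragments of the stretch that were above 0 in whisker pad, and beside the 67.0% of the mirror stands 49.5%, so that the shared shares differ along with detection in whisker pad, whose part was not tested.

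Between viewpoints, 47 fragments were above 0 from both the promoter and Leaf in whisker pad, which is 21.6% of the former and 57.3% of the latter. Of all fragments of the stretch, 12.9% were above 0 from Leaf and 34.2% from the promoter. In the promoter mirror 110 were shared, or 32.3% and 65.9%, where 49.5% of all fragments were above 0 from the promoter. The part of detection in these overlaps was not tested. In kidney the 71 fragments from the promoter and the 22 from Leaf had 0 in common, whereas the promoter mirror had 16 in common, or 13.9% and 31.4%. With so few fragments above 0 in the kidney libraries, little overlap could be seen, and no difference between the tissues is read from these counts.

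The share of fragments above 0 was 3.07 times as high in whisker pad as in kidney from the promoter, and 3.73 times from Leaf. In the mirror these ratios were 2.97 and 3.31, so that the tissues differed by about as much at either side. The mean score, scaled to the mean within 1 Mb of the viewpoint, was 0.151 in whisker pad and 0.158 in kidney from the promoter, a log2 ratio of -0.07, against 0.334 and 0.247 in the mirror, a log2 ratio of 0.44. From Leaf it was 0.159 and 0.289, a log2 ratio of -0.86, against 0.190 and 0.220, a log2 ratio of -0.21. The direction of these differences in mean depended on the scaling. Scaled to all of chromosome 3 the log2 ratio of the stretch was 0.67 from the promoter and -0.14 from Leaf, and scaled to the median of fragments above 0 it was 1.01 and 0.62. No direction between the tissues in the mean level of the stretch can be given, and the difference in share moved with how many fragments were above 0 within 1 Mb in each library, whose part in it was not tested.

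Longer fragments were more often above 0 in 3 of the 4 libraries. From the promoter in whisker pad, 13.7% of fragments under 100 bases, 53.8% of those from 500 bases to under 800 and 46.2% of the longest were above 0, and in kidney 3.92%, 16.8% and 23.1%. From Leaf in kidney the share did not rise with length, and lay between 2.52% and 5.88% in the length classes. The median length was 372.5 bases among fragments above 0 and 251.5 among the others in whisker pad, and 427 and 278 in kidney. From Leaf it was 391 and 277 in whisker pad, but 274 and 292.5 in kidney, where 22 fragments were above 0. In every length class the promoter share in whisker pad was lower in the stretch than in the mirror, and with the mirror reweighted to the fragment lengths of the stretch the telomeric shares stayed the lower ones in all 4 libraries.

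**Figure D5:**
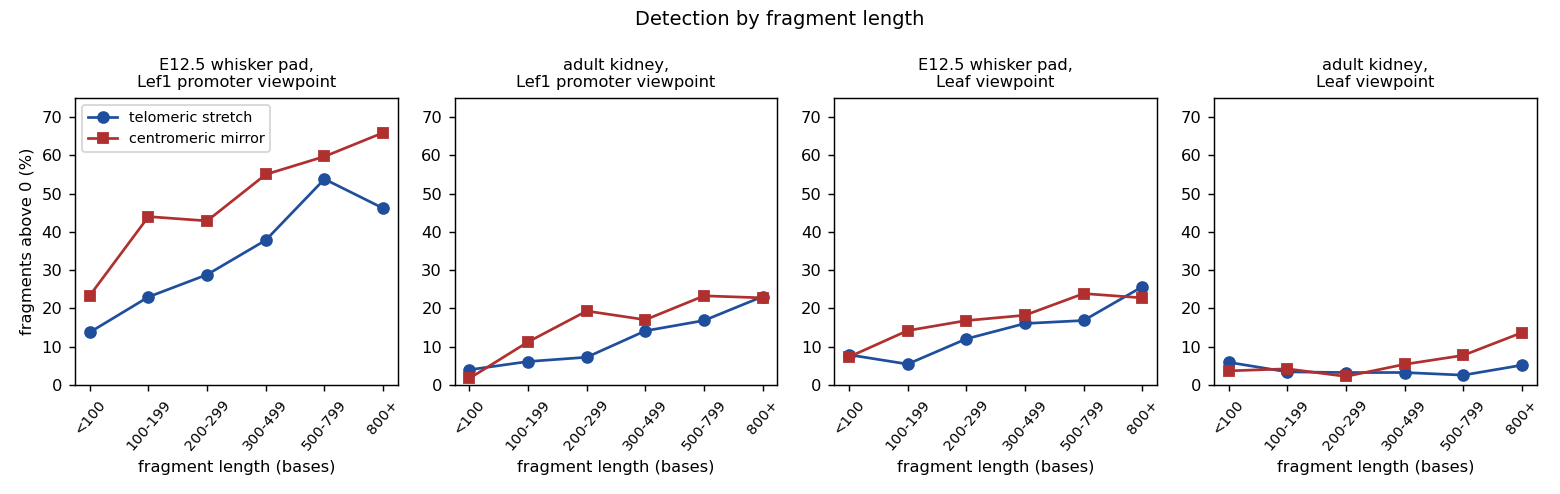
Share of fragments with a raw score above 0 (y axis, %) by class of fragment length (x axis, bases) in the stretch (blue circles) and its centromeric mirror (red squares), in 1 panel per library. In whisker pad from the promoter the stretch rises from 13.7% to 53.8% and is at 46.2% in the longest class, where the mirror is at 65.9%, and it lies below the mirror in each class.

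As CTCF is found at many contact boundaries, a core of its binding motif (CCA, any 2 bases, AGG, any base, GGCA) was searched on both strands. The stretch held 1 match, on the plus strand at chr3:131594514-131594526 within an intron of *Papss1*, and both mirrors held 0. Of 240 windows of the same length along chromosome 3, 74.6% had at least 1 match, with a median of 2. The match is shown in capitals, with 20 bases on either side, because it is the one place in the stretch with these letters.

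CTCF core match, chr3:131594494-131594546, plus strand: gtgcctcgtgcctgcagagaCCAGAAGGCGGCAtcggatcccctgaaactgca

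Of the 6 scored fragments whose midpoints lie nearest to it, the nearest (131594573 to 131594907) was at 0 in all 4 libraries. The highest of the 6, 131592768 to 131593104, had 60.59 from the promoter and 103.2 from Leaf in whisker pad. The rest had at most 18.04 and 20.21 there, and all 6 were at 0 in both kidney libraries. With any base allowed also at the last G of AGG, the stretch held 17 matches, 5 on the plus and 12 on the minus strand, and the mirrors 19 and 15. The median over the chromosome was 11, and 36.7% of windows had as many as the stretch. The letters are thus no more frequent here than in many other windows, and binding of CTCF was not measured in these libraries.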

How the data were processed

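The authors digested chromatin with NlaIII and DpnII and processed the reads with the HTSstation pipeline. The submitters' processing notes name Bowtie2 and mm10, without a version of the former. They deposited a raw and a smoothed signal per restriction fragment and library. Columns of other samples left unused numbered 0. How the raw signal was scaled is not given in the sources used here, and read depth is unknown, so that intervals over fragments are the only error given.

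Fragments were assigned by their midpoint. The deposited intervals leave out the NlaIII sites, and positions are printed 1-based. A fragment was detected at a raw signal above 0. The mirror took centromeric fragments at the same distances from 131108763 (promoter) or 131019540 (Leaf). Normalized scores were raw scores over their mean within 1 Mb, after the methods. Sites and motif letters were matched on the reference with Python 3.11.15, and counts, means and 95% Wilson intervals were computed with numpy 2.4.6, pandas 2.3.3 and scipy 1.17.1, plotted with matplotlib 3.10.9. The selection of the stretch and of its mirror was tested for the Leaf viewpoint on simulated data with known detection shares. Genes came from GENCODE M21 and the promoter sequences from RefSeq.

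Named genes were the protein-coding genes of the stretch and its mirrors. Named fragments were up to 5 with the highest raw score per library, and any above 0 in all 4. Named windows were those of 11 fragments with the highest mean. The limits of the stretch and these lists were chosen with earlier results of these data known. Alternatives changed the detection threshold, the membership rule, the minimum length, the ends of the stretch, the binning, the cap on scores and the scaling.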

Additional observations from a re-analysis of the deposited data

Results flagged for a closer look

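From Leaf, the mean score of the stretch over that of its centromeric mirror went in opposite directions in the tissues, with a log2 ratio of -0.26 in whisker pad and 0.39 in kidney. Each value rests on 1 library, and the difference between them was not tested. In kidney 22 fragments were above 0 in the stretch and 5 of them held 55.5% of its raw score, while the share of fragments above 0 was lower in the stretch than in the mirror in both tissues.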

How the results depend on the processing

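The share of fragments above 0 was lower in the stretch than in the mirror in all 4 libraries under every alternative tried, with log2 ratios from -0.71 to -0.42 in whisker pad and -0.93 to -0.22 in kidney from the promoter, and from -0.60 to -0.30 and -0.87 to -0.44 from Leaf. The mean was lower under all of them in 3 libraries and higher in kidney from Leaf, at 0.32 to 0.50. In whisker pad from the promoter the share was 29.8% when a score of at least 2 was asked for, 40.3% over fragments of at least 200 bases and 30.2% without the 100 kb next to the gap, and from Leaf 15.9% over fragments of at least 200 bases. The log2 ratio of the means there was -0.44 without that 100 kb, and -1.74 with telomeric distances shortened by the length of the gap, an alternative chosen after seeing the data, as was the reweighting by length. The log2 ratio of mean normalized scores, whisker pad over kidney, turned from -0.07 to 0.67 (scaled to chromosome 3) and 1.01 (scaled to the median above 0) from the promoter, and went from -0.86 to -0.14 and 0.62 from Leaf; the cause was not tested. The other 120 values kept their direction and stayed within 1.5-fold, or for a share within its interval; those of the means still ranged from -1.23 to -0.18 in kidney from the promoter and from -0.36 to -0.03 in whisker pad from Leaf. The cap at the 99th percentile changed no value and so tests nothing. No replicate could be left out with 1 library per group. No paired analysis was possible because the labels carry no replicate numbers and each group is 1 library. Read depth is unknown, and the kidney values from Leaf rest on the fewest fragments above 0, 22.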
